A study of Mus musculus with 4 samples.

Results

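Genes of the lens fibre cell were followed, chosen by name as fibre channel, connexin, beaded filament and denucleation genes. They were Mip, Lim2, Gja3, Bfsp1, Bfsp2, Lgsn, Dnase2b and Hsf4, that is, 8 of the 22558 genes in the deposited table. All 8 were listed, and all had a mean above 10 FPKM over the 4 conditions. FPKM is the number of mapped fragments scaled to transcript length and library size. The samples were whole eyes of Abca4-/-Rdh8-/- mice aged 6 weeks, a double knockout genotype that the unexposed control shares with every exposed group. The exposed groups were collected 3 h, 24 h or 7 days after light, with 3 mice named for each condition. Values given in time order run from the control through 3 h and 24 h to 7 days. One value per gene and condition was deposited, so no difference below has a replicate check and no test was run. The labels do not give the dose of light, the strain or the sex of the animals.

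Lens fibre cells arise from the epithelium at the front of the lens, elongate, fill with crystallins and then lose their nuclei and other organelles. Their membranes are packed with the water channel encoded by Mip, the tetraspan protein encoded by Lim2 and gap junctions made of connexins. The filensin and phakinin proteins of Bfsp1 and Bfsp2 assemble into the beaded filament, an intermediate filament found in lens fibres. Lgsn encodes lengsin, a lens protein related to glutamine synthetase. Dnase2b encodes the acid nuclease that degrades fibre cell DNA, and Hsf4 encodes a heat shock transcription factor needed for its expression in the lens.

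The labels name whole eyes as the tissue but mention retinas under extraction, so the tissue was checked against defining lens transcripts. All 16 crystallin genes were detected in every sample, at 89.3 FPKM or more, and together they took 23.6%, 20.2%, 24.1% and 23.1% of all FPKM in time order. Summed FPKM per sample ranged from 626973 in the control to 680305 at 3 h. Small RNA genes took 12.7% of it in the control and 18.0% at 3 h. Transcripts of 4 Y-linked genes summed to 18.5 FPKM at 7 days and to at most 0.0189 FPKM elsewhere, so sex differed along with time in comparisons of the 7-day sample. In whole eyes, fewer lens fibre cells and less RNA per cell cannot be told apart.

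The 8 genes fell into 2 levels, with 5 abundant structural transcripts and 3 at a much lower level. The order was the same in the control, 3 h and 7-day samples, namely Lim2, Mip, Lgsn, Bfsp1, Bfsp2, Gja3, Dnase2b and Hsf4. At 24 h Lgsn stood above Mip, and the other places were unchanged. Lim2 ranked 52nd among all listed genes in the control and between 49th and 50th in the light samples. Hsf4, the least abundant, ranked 5279th in the control, and Lim2 exceeded it 73.9-fold there and 84.3-fold at 3 h. Lim2, Mip, Lgsn and Bfsp1 together made up 87.7% of the summed FPKM of the 8 genes in the control and 87.9% at 24 h. The 8 genes summed to 3959, 4099, 4501 and 4400.5 FPKM in time order. That was 0.631%, 0.602%, 0.682% and 0.655% of all FPKM.

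**Figure D1:**
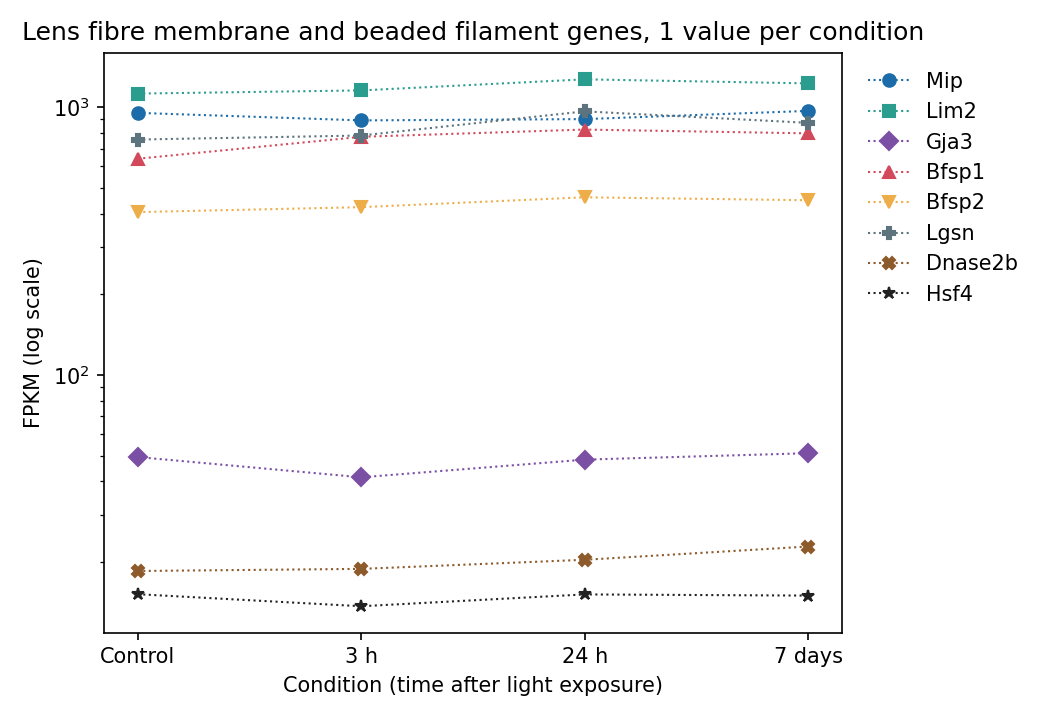
FPKM (log scale) of the 8 lens fibre genes in the control and 3 h, 24 h and 7 days after light, with 1 value per condition and dotted lines joining values of a gene. Lim2, Mip, Lgsn, Bfsp1 and Bfsp2 lie at 405 FPKM or more throughout, and Gja3, Dnase2b and Hsf4 at 51.0 FPKM or less.

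None of the 8 genes differed 2-fold from the control at any time. A change was computed as the log2 ratio of FPKM + 1, a scale that slightly understates changes of low genes, and a gene was called at an absolute change of 1. At that threshold 0 of 8 were called at 3 h, 24 h or 7 days, where 0.789%, 1.11% and 0.599% of the 14194 genes with a mean of at least 1 FPKM were called. At 24 h against 3 h and at 7 days against 24 h the count was again 0 of 8, against 0.951% and 0.810% of genes. The differences below are therefore small, and were read against the 7407 genes with a mean of at least 10 FPKM, as all 8 have. A smaller step of 0.2 (1.15-fold) was used to count them.

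At 3 h, 1 of 8 was higher than the control by at least 0.2 (Bfsp1), against 16.0% of the genes, and 1 of 8 was lower by as much (Gja3), against 6.94%. At 24 h, 2 of 8 were higher (Bfsp1 and Lgsn), against 14.6%, and 0 of 8 lower, against 10.3%. At 7 days, 3 of 8 were higher (Bfsp1, Lgsn and Dnase2b), against 8.78%, and 0 of 8 lower, against 8.60%. These counts at 3 h and 7 days depended on scaling. With each sample rescaled to the same sum over genes outside the lists for lens, surface epithelium, erythroid cells and skeletal muscle, 0 of 8 were higher at 3 h (4.69% of genes) and 3 of 8 lower (Mip, Gja3 and Hsf4, against 33.1%). At 7 days only Bfsp1 (0.21) then stayed past 0.2, against 3.19% of genes, with Lgsn at 0.098 and Dnase2b at 0.19. Lgsn also fell short at 7 days with small RNA genes left out of that sum too (0.16) and on the crystallin sum (0.14), and Gja3 fell short at 3 h on the latter (-0.14). Bfsp1 and Lgsn passed 0.2 at 24 h under all 7 alternatives. On the deposited scale the median log2 change over the 8 genes was 0.032 at 3 h, 0.15 at 24 h and 0.14 at 7 days. Over the 7 alternatives it ran from -0.14 to 0.14 at 3 h, from 0.053 to 0.16 at 24 h and from 0.028 to 0.14 at 7 days. As deposited, the medians over all genes with a mean of at least 10 FPKM were 0.036, 0.025 and 0.0065. These 3 comparisons share the control value. Signs at 3 h depended on scaling: only Bfsp1 (above 0), Gja3 and Hsf4 (below 0) kept theirs under all 7 alternatives. At 24 h all 8 did so, and at 7 days 6 of 8. Part of this was fixed in advance, as a changed pseudocount or minimum mean cannot turn the sign of a gene. Every rescaling shifted values downwards at 24 h (-0.015 to -0.10) and at 7 days (-0.0033 to -0.11). Genes already below 0 could thus not turn, namely Mip, Gja3 and Hsf4 at 24 h and Hsf4 at 7 days.

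**Figure D2:**
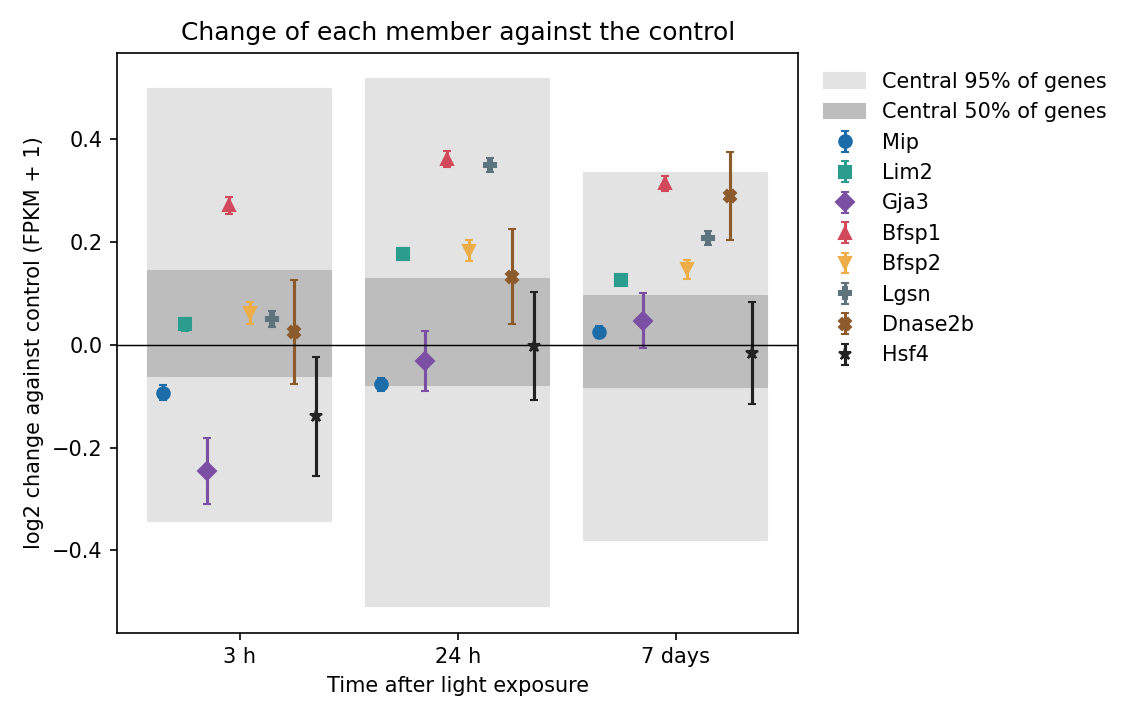
The log2 change of FPKM + 1 against the control for each of the 8 genes at 3 h, 24 h and 7 days; bars show 1 approximate counting standard error and cover counting only. Grey bands hold the central 50% and 95% of the 7407 genes with a mean of at least 10 FPKM, and every point lies within the 95% band.

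Among the membrane genes, Mip varied least on the deposited scale. Its values in time order were 951, 891, 901 and 967 FPKM, a 1.09-fold range. The control and 7-day samples were the higher pair. Its log2 changes against the control were -0.093, -0.077 and 0.024, at the 18.6th, 25.3rd and 55.7th percentiles of the 7407 genes. The sign at 3 h turned under rescaling to the crystallin sum, and that at 7 days under 3 of the 7 alternatives.

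Lim2, the tetraspan gene of the claudin and Pmp22 superfamily, was lowest in the control on the deposited scale and turned below it at 3 h under both rescalings to a sum without tissue lists. Its level was 1122, 1153, 1269 and 1225 FPKM in time order, with log2 changes of 0.040, 0.18 and 0.13 against the control. The approximate counting standard error of these changes was at most 0.013. That error was obtained from the FPKM worth of 1 fragment, read from olfactory receptor genes seen in a single sample (0.0448, 0.0467, 0.0350 and 0.0255 FPKM in time order). It leaves out the spread between animals. It is also not corrected for transcript length, so it is too large for transcripts longer than those of the receptors. The Lim2 relative Pmp22, the peripheral myelin protein gene, was at 60.9, 60.8, 63.0 and 68.6 FPKM in the same order.

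Within a sample, a ratio of 2 genes does not depend on library scaling. The Lim2:Mip ratio was 1.18, 1.29, 1.41 and 1.27 in time order, so it was lowest without light. The aquaporin list held 11 genes, 6 of them with a mean of at least 1 FPKM, and none was called against the control at any time. Aqp5, a water channel of lens and also of cornea, was at 348, 475, 431 and 447 FPKM, above the control in each light sample. Aqp1 was at 158.6, 124.0, 140.2 and 147.1 FPKM, below the control in each. Mip was the most abundant aquaporin transcript in all 4 samples on this length-scaled measure.

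The connexin gene Gja3 had levels of 49.4, 41.5, 48.3 and 51.0 FPKM in time order. The 3 h sample stood lowest, at 0.84 of the control. The log2 change of -0.25 there had a counting standard error of 0.065 and lay at the 4.85th percentile of genes. At 24 h and 7 days the changes were -0.031 and 0.047, each smaller than its counting standard error (0.058 and 0.054). The sign at 7 days turned under 2 of the 7 alternatives.

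The connexin list had 11 of 19 genes with a mean of at least 1 FPKM, and none was called. Gja1, a connexin of lens epithelium and many other tissues, was at 93.5, 83.6, 82.1 and 97.8 FPKM.

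The beaded filament genes did not keep a fixed ratio, but the range of Bfsp1:Bfsp2 was modest, at 1.16-fold. That was narrower than Lim2:Mip (1.19-fold) and wider than Bfsp2:Lim2 (1.015-fold). Bfsp1 stood at 641, 774, 824 and 797 FPKM in time order. All 3 light samples were above the control, by 1.21-, 1.28- and 1.24-fold, and within 1.06-fold of their neighbours in time. The log2 changes of 0.27, 0.36 and 0.31 had counting standard errors of 0.016, 0.015 and 0.015. They lay at the 90.3rd, 94.8th and 97.03rd percentiles of genes.

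Bfsp2 stood at 405, 423, 460.3 and 449 FPKM. The control was again lowest, but the log2 changes of 0.061, 0.18 and 0.15 were smaller than those of Bfsp1. The 3 h value turned below 0 under both rescalings to a sum that leaves out tissue lists. The Bfsp1:Bfsp2 ratio was 1.58 in the control and 1.83, 1.79 and 1.78 in the light samples. The light samples thus lay close to each other and apart from the control in this ratio. Several inbred mouse strains carry a natural deletion in Bfsp2, and a whole-gene value does not show which exons were read.

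Bfsp2 moved almost in step with Lim2. The Bfsp2:Lim2 ratio was 0.361, 0.367, 0.363 and 0.366 in time order, a 1.015-fold range. Of all pairs among the 8 genes this one had the smallest root-mean-square difference between centred log2 profiles, at 0.0089 over the 4 conditions. The next pair, Mip and Hsf4, was at 0.051, and the farthest pair, Gja3 and Bfsp1, at 0.19. Bfsp1 and Bfsp2 lay between these, at 0.082. The Bfsp1:Mip ratio was 0.674 without light and 0.868, 0.914 and 0.824 after it.

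**Figure D3:**
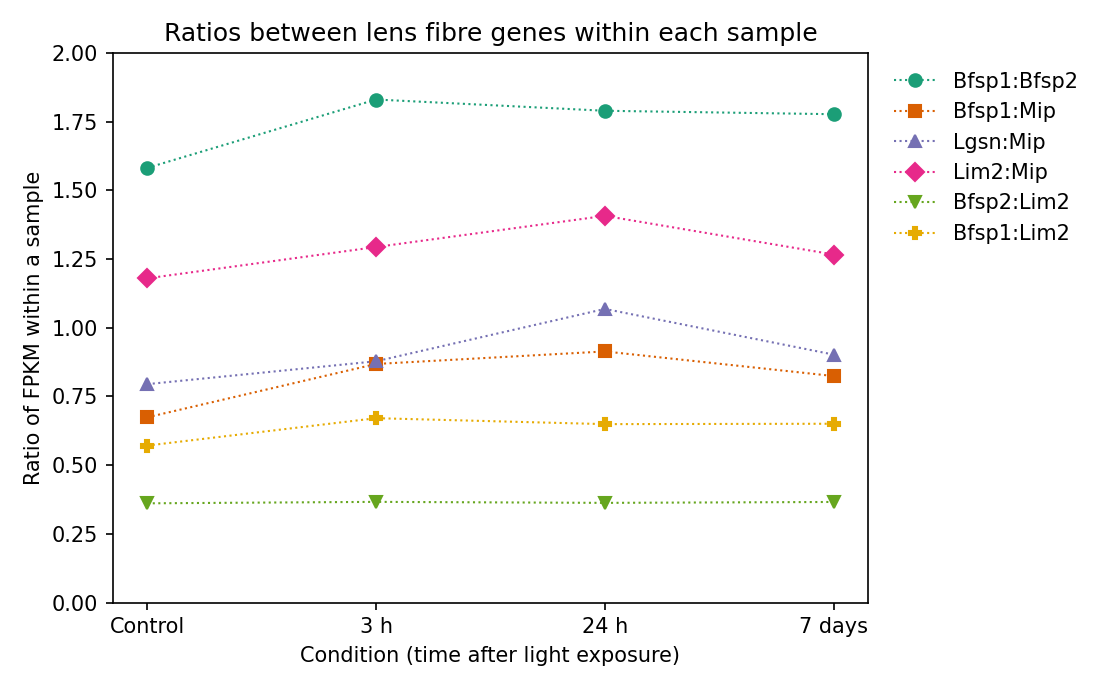
Ratios of FPKM between pairs of lens fibre genes within each sample (vertical axis from 0), in the control and 3 h, 24 h and 7 days after light. Bfsp2:Lim2 stays between 0.361 and 0.367, whereas Bfsp1:Bfsp2 goes from 1.58 in the control to between 1.78 and 1.83.

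The upstream sequences of these partner genes are shown because their transcripts did not keep one ratio. They are the 250 bases before the RefSeq start on GRCm38.p6, a later build than the mm9 of the deposited values, written 5′ to 3′ on the gene's strand.
Bfsp1, chr2:143863174-143863423, minus strand: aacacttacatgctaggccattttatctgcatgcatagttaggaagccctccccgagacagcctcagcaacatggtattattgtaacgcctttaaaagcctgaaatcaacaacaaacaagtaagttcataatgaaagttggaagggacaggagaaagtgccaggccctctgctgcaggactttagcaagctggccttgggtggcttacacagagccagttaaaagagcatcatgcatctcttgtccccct
Bfsp2, chr9:103449177-103449426, minus strand: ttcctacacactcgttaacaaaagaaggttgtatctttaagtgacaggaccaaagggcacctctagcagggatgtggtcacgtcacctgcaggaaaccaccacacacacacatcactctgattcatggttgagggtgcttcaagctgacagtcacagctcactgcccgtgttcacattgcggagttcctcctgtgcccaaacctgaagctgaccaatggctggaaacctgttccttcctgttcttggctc
Capitals would mark a heat shock element (GAANNTTC or TTCNNGAA) or a Maf half-site (TGCTGAC) on either strand, and these windows hold none of the 3. Over 32851 promoters of the table, 6.69%, 7.17% and 3.81% hold each motif in the same window. These letters are a description and show no binding.

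The intermediate filament list held 13 genes, and 2 were called at 24 h, both higher, with 0 at 3 h and 0 at 7 days. At 24 h 1.11% of the genes with a mean of at least 1 FPKM were called. With a pseudocount of 0.1, 1 gene of the list was called at 7 days. Gfap was at 18.3, 15.5, 93.0 and 36.8 FPKM, and Prph was at 1.03, 0.634, 4.15 and 1.04 FPKM. Both are expressed outside the lens. Vim, the vimentin gene, which is made in lens but also in glia and fibroblasts, was at 326, 333, 457 and 359 FPKM. The Bfsp1:Vim ratio was accordingly 1.96, 2.32, 1.801 and 2.22, lowest at 24 h.

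Lgsn differed most at 24 h. Its levels were 756, 783, 963 and 873 FPKM in time order, which is 1.27-fold the control at 24 h and 1.15-fold at 7 days. The log2 changes of 0.050, 0.35 and 0.21 lay at the 53.7th, 94.3rd and 91.7th percentiles of genes, with counting standard errors of at most 0.016. The value at 3 h turned below 0 under 2 of the 7 alternatives. The Lgsn:Mip ratio was 0.795, 0.878, 1.07 and 0.902, highest at 24 h.

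The glutamine synthetase gene Glul, a relative of Lgsn that retinal Müller glia express strongly, behaved differently. It was at 769, 849, 395 and 884 FPKM, and the Lgsn:Glul ratio was 0.983, 0.922, 2.44 and 0.987. Both transcripts were thus near equal in 3 samples and apart at 24 h, where Lgsn was higher and Glul lower than in the control. Between 3 h and 24 h the log2 change was 0.30 for Lgsn and -1.10 for Glul.

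Dnase2b was highest at 7 days. Its levels were 18.5, 18.9, 20.4 and 22.9 FPKM in time order. The 7-day value was 1.23-fold the control, a log2 change of 0.29 with a counting standard error of 0.086, at the 96.3rd percentile of genes. At 3 h the change of 0.025 was below its counting standard error of 0.10, and its sign turned under 3 of the 7 alternatives. At 24 h the change was 0.13, with an error of 0.093 that is not corrected for the length of 2685 bases.

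Dnase2a, the lysosomal nuclease gene of most tissues, was at 5.53, 6.14, 5.59 and 5.96 FPKM. The Dnase2b:Dnase2a ratio was 3.35, 3.08, 3.65 and 3.84. A list of 10 genes tied to organelle loss or its machinery, Dnase2a among them, had no call against the control and medians of 0.043, 0.0018 and 0.022, each of which turned below 0 under rescaling. In it Bnip3l, a mitophagy receptor used in fibre cells, was at 64.1, 71.8, 71.1 and 70.01 FPKM, and Pla2g16, a phospholipase that degrades lens organelles, was at 39.0, 40.0, 38.8 and 44.9 FPKM. These genes are also expressed outside the lens.

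On the deposited scale Hsf4 was the gene of the 8 nearest to its control level at 24 h and 7 days. Rescaling to the crystallin sum gave that place to Dnase2b at 24 h (0.033, with Hsf4 at -0.10), and at 7 days Lim2 or Gja3 held it under 3 rescalings. It stood at 15.2, 13.7, 15.2 and 15.0 FPKM. The log2 change of -0.14 at 3 h was close to its counting standard error of 0.12, and those of -0.0026 and -0.016 were far below theirs. The Hsf4:Dnase2b ratio was 0.819 without light and 0.725, 0.743 and 0.656 after it, lowest at 7 days. Hsf1, the widely expressed family member, was at 13.6, 13.0, 12.0 and 12.4 FPKM.

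Dnase2b is shown with its upstream sequence because Hsf4 is needed for its expression and because it was the single gene of the 7 found in the promoter table that held any of the motifs above. The capitals mark GAATGTTC, a heat shock element that starts 230 bases before the RefSeq start (GRCm38.p6).
Dnase2b, chr3:146615599-146615848, minus strand: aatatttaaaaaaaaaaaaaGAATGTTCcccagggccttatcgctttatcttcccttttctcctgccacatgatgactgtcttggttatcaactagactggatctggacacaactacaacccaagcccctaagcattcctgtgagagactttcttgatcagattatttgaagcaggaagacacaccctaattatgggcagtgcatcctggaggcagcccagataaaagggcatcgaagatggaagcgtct
Either form of the element occurs in 12.8% of all promoter windows. The match is a stretch of letters, and no binding was measured here.

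Heat shock genes were described as a list because Hsf4 belongs to that family of factors. None of its 10 genes was called against the control at any time. All 10 were above 0 at 3 h and 8 of 10 were at 24 h and at 7 days, with medians of 0.27, 0.10 and 0.10. Of the 7407 genes with a mean of at least 10 FPKM, 4468, 4174 and 3862 were above 0 at these times. The counts depended on scaling, falling to as few as 7 of 10 at 3 h, 6 at 24 h and 4 at 7 days. Hspb1, a small heat shock protein abundant in lens and cornea, was at 429, 606, 594 and 564 FPKM. Dnajb1, a co-chaperone, was at 42.8, 58.6, 59.3 and 52.2 FPKM. Both were above the control in all 3 light samples under every rescaling. Hsf4 was at -0.14, -0.0026 and -0.016 on the deposited scale, so it lay near 0 at 24 h and 7 days. The heat shock genes below 0 on that scale were Bag3 (-0.23) and Hsp90aa1 (-0.022) at 24 h. At 7 days they were Hsp90aa1 (-0.27) and Hspd1 (-0.038). The list's median stayed above 0 at 3 h and 24 h under every rescaling (0.094 or more at 3 h) and reached -0.00030 at 7 days under one.

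Set against the crystallin sum, 5 of the 8 genes (Lim2, Bfsp1, Bfsp2, Lgsn and Dnase2b) were higher in all 3 light samples than in the control. The share of all genes that were so was not computed. This scale shifted every gene by 0.11, -0.10 and -0.066 in time order. At 3 h the median over all genes with a mean of at least 1 FPKM was then 0.11. Dnase2b at 24 h was at 0.033, with a counting standard error of 0.093. Alpha and beta crystallins (8 genes) had median log2 changes of -0.11, 0.12 and 0.10 at 3 h, 24 h and 7 days, and gamma crystallins (8 genes, some near-identical and hence uncertain) -0.38, -0.016 and 0.037. Rescaling turned the sign of the alpha and beta median at 3 h and 7 days and of the gamma median at 7 days. Per 1000 FPKM of crystallin, Bfsp1 came to 4.33, 5.64, 5.18 and 5.14 FPKM in time order. Lgsn was at 5.11, 5.70, 6.06 and 5.63 on the same scale, so both were lowest in the control. Lim2 was at 7.58, 8.40, 7.97 and 7.91, Bfsp2 at 2.74, 3.08, 2.89 and 2.89, and Dnase2b at 0.125, 0.138, 0.128 and 0.148. Mip was at 6.42, 6.50, 5.67 and 6.24, lowest at 24 h, and Hsf4 was at 0.103, 0.0997, 0.0953 and 0.0968, highest in the control. Gja3, at 0.333, 0.302, 0.303 and 0.329, was also highest there. The 8 genes together came to 2.67%, 2.99%, 2.83% and 2.84% of the crystallin sum.

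Among 12 other lens fibre genes, of which Aqp5, Hspb1, Cdkn1c and others are also made elsewhere in the eye, none was called, and the medians were 0.085, 0.12 and 0.037, of which the first and last turned below 0 under rescaling. Grifin, a lens galectin-related gene, was at 427, 464, 516 and 522 FPKM, and Lctl, a lens klotho-like gene, at 111.6, 122.2, 135.6 and 131.3 FPKM. On the deposited scale both were lowest in the control, as were Lim2, Bfsp1, Bfsp2, Lgsn and Dnase2b. The share of all genes lowest in the control was not computed. On the sum without tissue lists, values at 3 h shifted by -0.18, more than the changes of Grifin (0.12) and Lctl (0.13). Of the 8 genes only Bfsp1 then stayed above 0 at 3 h. Birc7, a lens inhibitor of apoptosis gene, was at 51.1, 66.1, 66.8 and 64.5 FPKM, also lowest in the control, with the 3 light samples close together. Tdrd7, an RNA granule gene needed in the lens, was at 151.4, 144.1, 132.9 and 134.03 FPKM, highest in the control on that scale.

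Of 14 lens transcription factor genes listed, 13 were found, and none was called. Their medians were -0.022, -0.065 and 0.062, and the sign turned under rescaling at 3 h and 7 days. Maf, which drives crystallin expression in fibres, was at 26.8, 23.2, 25.4 and 28.0 FPKM, lowest at 3 h as were Gja3, Hsf4 and Mip. Foxe3, a factor of lens epithelium, was at 6.50, 9.07, 7.39 and 9.15 FPKM.

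**Figure D4:**
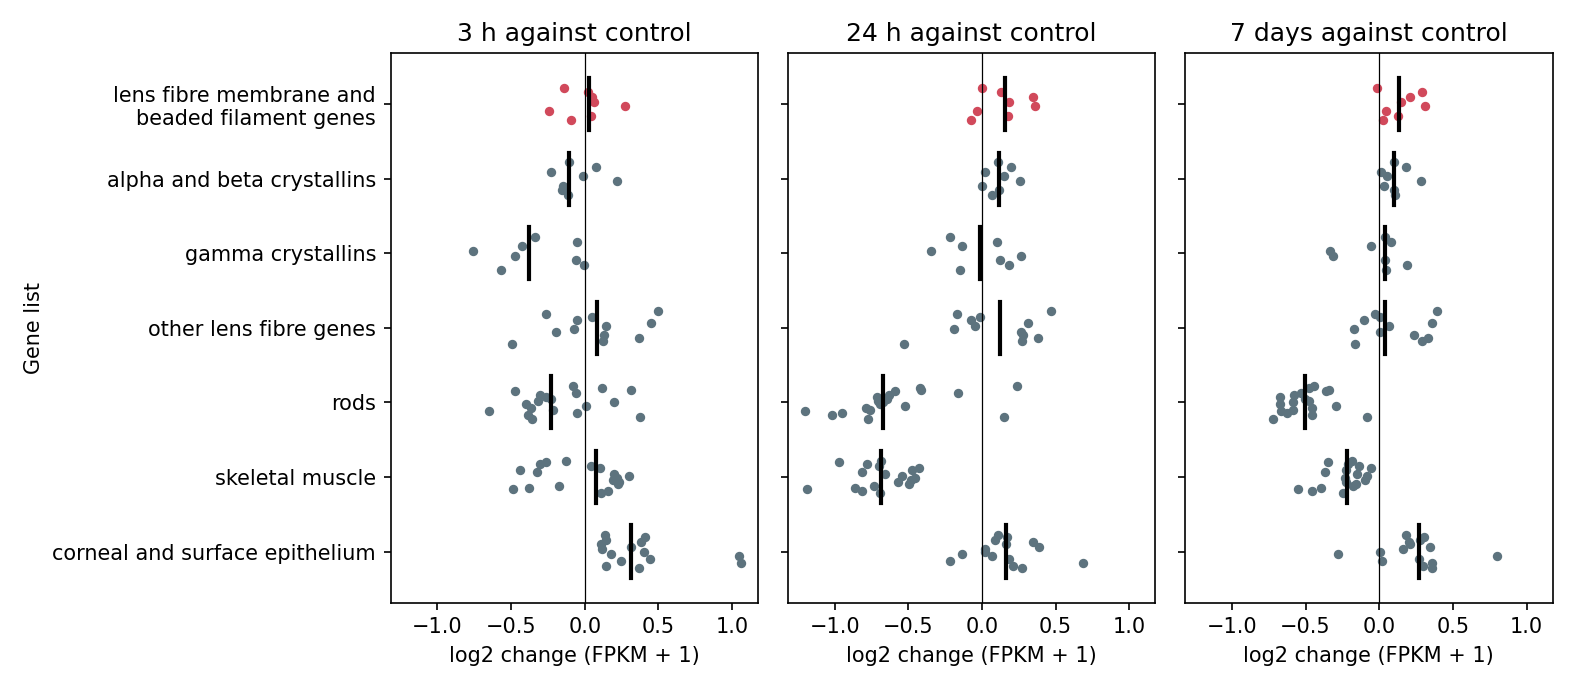
Log2 changes of FPKM + 1 against the control at 3 h, 24 h and 7 days for genes (points) with a mean of at least 1 FPKM in 7 lists, with a black bar at each list's median. The lens fibre membrane and beaded filament genes have medians of 0.032, 0.15 and 0.14, and the rod and skeletal muscle lists lie at -0.67 and -0.69 at 24 h.

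Other tissues of the eye moved with these comparisons. Rod markers (19 of 20 with a mean of at least 1 FPKM) summed to 18164 FPKM without light and to 15807, 11682 and 12498 FPKM after it. The 18 skeletal muscle markers summed to 2831, 3062, 1843 and 2476 FPKM, and the 15 corneal and surface epithelium markers to 4819.8, 6003, 5740 and 5916 FPKM. In FPKM, less of one tissue raises the share of the rest. The part of these shifts in the lens values was not tested. No marker of these 3 lists was listed at 0 in any sample. The ratios within a sample given above do not depend on the library total.

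Changes also differed with transcript length. Among the 6616 of 7407 genes with a protein-coding length in GENCODE M21, transcripts under 1000 bases had median log2 changes of 0.095, 0.13 and 0.12 at 3 h, 24 h and 7 days. Transcripts of 5000 bases or more had medians of 0.047, -0.029 and -0.061. Lim2 is the shortest of the 8 genes at 884 bases and Gja3 the longest at 2766. For lengths from 2000 to under 3000 bases, which include Mip, Gja3, Bfsp1 and Dnase2b, the medians were 0.023, 0.036 and 0.016. Bfsp1, at 2372 bases, stood above that class at all 3 times, and Lim2 at 7 days (0.13) was near the median of its own class (0.12). The part of length in any of these differences was not tested.

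**Figure D5:**
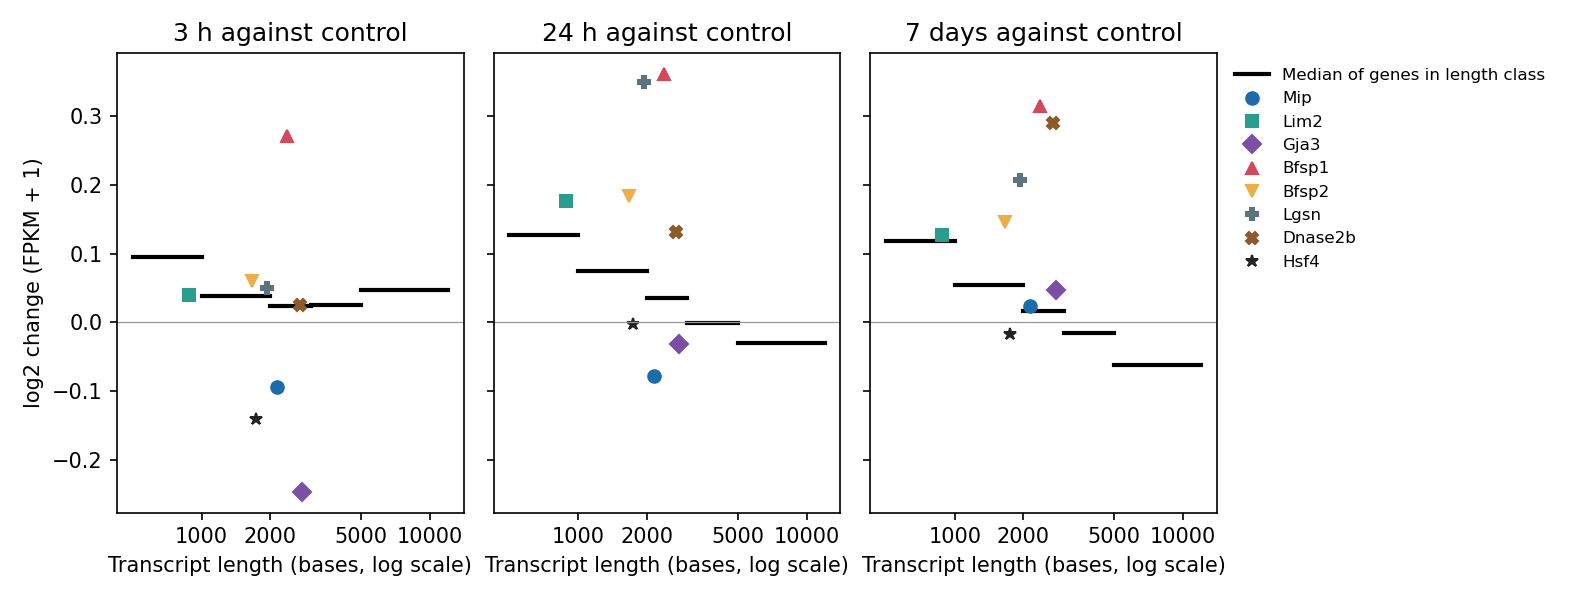
Log2 change of FPKM + 1 against the control (vertical) by longest protein-coding transcript length in bases (log scale) for the 8 genes at 3 h, 24 h and 7 days, with black bars for the median of all genes in 5 length classes, the outer 2 open-ended. Bfsp1 stands at 0.27, 0.36 and 0.31 over class medians of 0.023, 0.036 and 0.016.

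Successive times were also compared, without the control. From 3 h to 24 h all 8 genes were higher, with a median of 0.13 against -0.011 for all genes with a mean of at least 10 FPKM. Of those 7407 genes, 3472 were higher, and so were all 16 crystallins. In all, 2 of 8 passed 0.2 upwards (Lgsn at 0.30 and Gja3 at 0.21), against 9.17% of genes, and 0 of 8 downwards, against 14.2%. Under rescaling to the crystallin sum only these 2 stayed above 0 and none passed 0.2, whereas on the sum without tissue lists 7 of 8 passed it, against 24% of genes. From 24 h to 7 days the median was -0.025, with 0 of 8 past 0.2 upwards (8.07% of genes) or downwards (9.77%). Dnase2b (0.16) and Lgsn (-0.14) were the 2 ends of that range.

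Many genes outside the lens lists had a like profile. The mean centred profile of the 8 genes was compared with that of 7366 genes, and the nearest 5 outside the lens lists were Rhpn2, Atpaf1, Fgfr1, Trappc1 and Tle3, at root-mean-square differences of 0.0034 to 0.0079 log2 units over 4 conditions. Rhpn2 was at 12.3, 12.3, 13.6 and 13.7 FPKM, lower in the control and at 3 h than later. Lim2 itself lay at 0.026 from that mean profile and Bfsp1 at 0.10. Of the 7366 genes, lens genes and Lim2 itself counted in, 128 were at least as near as Lim2.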

How the data were processed

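Whole-eye RNA was measured at 4 conditions, with 1 value per gene and condition. Per the submitters' processing notes, reads were handled with TopHat2 (version 2), bcl2fastq 1.8.3 and Cuffdiff 2.2.1 on build mm9, and the series design also names Cufflinks. The deposited values are FPKM made by the authors, and the sources do not say whether each is a pool or a mean of 3 libraries. Changes were computed as log2 of (FPKM + 1) ratios with pandas 2.3.3 and numpy 2.4.6, for the 14194 genes averaging 1 FPKM or more. The formula was also run on control values with planted changes and no noise, which checks the arithmetic only. No statistical test was possible. The 15 gene lists held 194 entries, of which 191 were found. The members and lists were chosen with earlier results of these data known, and the step of 0.2, the length classes and the pairs for ratios were chosen after seeing values. All members were named, any gene of a list could be named in its account, and the genes most like the members were the 5 nearest by centred log2 profile. The values of 1 gene of the lists are not reported here. Counting errors come from 14 to 20 olfactory receptor genes per sample and hold for transcripts of their length. Small RNA genes were taken from RefSeq (GRCm38.p6), which matched 99.0% of symbols. Promoter sequences are from RefSeq, and 7 of the 8 genes had an entry. Alternative settings were a smaller pseudocount (0.1), no minimum, a minimum mean of 5 FPKM and 4 rescalings, of which that to the crystallin sum was chosen after seeing the data.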

Additional observations from a re-analysis of the deposited data

Results flagged for a closer look

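Mip and Gja3 had changes of opposite sign against the same control at different times, and these differences were not tested. Mip had log2 changes of -0.093 at 3 h, -0.077 at 24 h and 0.024 at 7 days. For Gja3 they were -0.25, -0.031 and 0.047 in the same order. The counting standard errors at 7 days were 0.012 for Mip and 0.054 for Gja3. The signs at 7 days turned under 3 of the 7 alternatives for Mip and under 2 for Gja3. That of Mip at 3 h turned under 1. List medians also had opposite signs, again untested, with values in the same order of -0.11, 0.12 and 0.10 for alpha and beta crystallins and -0.38, -0.016 and 0.037 for gamma crystallins. They were -0.022, -0.065 and 0.062 for lens transcription factors and 0.073, -0.69 and -0.22 for skeletal muscle.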

How the results depend on the processing

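No gene of the 8 reached an absolute log2 change of 1 in any of the 5 comparisons under any of the 7 alternatives, the largest being 0.42. A shift of 0.1 or more was counted as a move, and 234 of 280 values for single genes moved by less. Much of that count was fixed in advance, as the filters cannot change the value of a gene. The median ratio shifted values by at most 0.027. Of 40 gene and comparison results, 25 kept their sign under every alternative. That count was also partly fixed in advance, as the pseudocount and the filters cannot turn a sign. All rescalings also shifted values at 24 h and 7 days against the control downwards, so genes below 0 there could not turn. The pseudocount, both filters and the median ratio moved no median by 0.1. Rescaling to a common sum that omits the lens, muscle, erythroid and surface epithelium lists shifted all values by -0.18 at 3 h and -0.11 at 7 days against the control and by 0.12 at 24 h against 3 h. The median of the 8 genes was then -0.14 (all genes, -0.14), 0.028 (all genes, -0.094) and 0.24 (all genes, 0.091). Leaving small RNA genes out of that sum too gave -0.036 at 3 h. Rescaling to the crystallin sum gave 0.14 at 3 h and 0.053 at 24 h against the control and -0.083 at 24 h against 3 h. Depth limits Hsf4 and Dnase2b most, with counting errors of about 0.1. No paired analysis was possible because each condition has 1 value.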
